A study of Mus musculus with 46 samples.

Results

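The genes described here are 10 genes of smooth muscle and of the contractile actin machinery, taken by name from the 25147 genes of the count table: Acta2, Actg2, Tagln, Myh11, Cnn1, Myl9, Des, Tpm1, Tpm2 and Cald1. All 10 were found in the count table and in the table of length-scaled values. Of these, 7 had enough counts to be among the 8629 genes tested, and Myh11, Cnn1 and Des did not. Each library held the polyadenylated RNA of 1 ovarian follicle of the outbred CD-1 mouse, grown for 8 days in alginate gel in medium with follicle-stimulating hormone. Follicles were then freed from the gel with alginate lyase, and they were frozen at 0 h (9 follicles) or after 1 h (13 follicles), 4 h (13) or 8 h (11) in maturation medium. That medium held human chorionic gonadotropin (hCG) at 1.5 IU/ml, epidermal growth factor at 10 ng/ml, follicle-stimulating hormone at 10 mIU/ml and fetal bovine serum. No follicle kept for the same hours without hCG was analysed here, so every comparison is between times and includes the change of medium, and all comparisons with 0 h share the same 9 follicles. Batch 1, as the labels give it, held 10 of the follicles at 1 h, 10 at 4 h and the whole 8 h group. Batch 2 held the whole 0 h group and 3 further follicles at 1 h and at 4 h. The authors had already adjusted the deposited counts between batches. Batch differences below are those left after that step, and the p-values do not account for it. Within batch 1 the 4 h follicles were on a plate of their own, so plate and time cannot be told apart there. Follicles are not tied to animals in the labels, and some may share one, so a p-value covers only follicle-to-follicle spread.

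Contractile cells pull on actin filaments with myosin. Alpha and gamma smooth muscle actin (Acta2 and Actg2) form the filaments, tropomyosins (Tpm1, Tpm2) lie along them, and calponin (Cnn1), caldesmon (Cald1) and transgelin (Tagln) bind them. Smooth muscle myosin is built from the heavy chain Myh11 and light chains such as Myl9, whose phosphorylation by myosin light chain kinase starts contraction. Desmin (Des) is the intermediate filament of muscle. In the ovary, smooth muscle cells lie in the theca externa, the outer coat of the follicle, and contraction there is a known part of follicle rupture after the surge of luteinizing hormone, which hCG replaces. Granulosa cells, which make up most of a cultured follicle, also carry an actin cytoskeleton. Many of these genes are known targets of serum response factor (SRF), which binds a 10-base element called the CArG box.

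The promoter tables of RefSeq (GRCm38.p6) held 8 promoters for 7 of the 10 genes, with no entry for Actg2, Tagln and Myh11. The 250 bases before each start were searched on both strands for the CArG box, a CC and a GG around 6 bases that are all A or T. It was found only in the promoter of Myl9, and in 1.47% of 32851 promoters. With up to 1 inner C or G allowed, a rule chosen after the sequences were seen, Acta2 and Myl9 each held 2 such elements and the other 5 genes none, against 8.59% of all promoters. These sequences are shown because they hold such elements. Among the genes called at 1 h, Acta2 and Myl9 also had the largest fold changes, apart from Actg2, which has no promoter entry. A link between the elements and the changes was not tested. Capitals mark the elements. The Acta2 windows of 30 bases lie on the minus strand at chr19:34255438-34255467 (element at -84 to -75 from the start) and chr19:34255388-34255417 (element at -34 to -25), both inside an exon annotated by GENCODE. The Myl9 stretch lies on the plus strand at chr2:156775214-156775419, in no annotated exon, with the strict CArG box at -161 to -152 and the looser element at -99 to -90.
Acta2 upper element: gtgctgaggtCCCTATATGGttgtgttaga
Acta2 lower element: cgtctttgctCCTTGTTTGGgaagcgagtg
Myl9 upstream: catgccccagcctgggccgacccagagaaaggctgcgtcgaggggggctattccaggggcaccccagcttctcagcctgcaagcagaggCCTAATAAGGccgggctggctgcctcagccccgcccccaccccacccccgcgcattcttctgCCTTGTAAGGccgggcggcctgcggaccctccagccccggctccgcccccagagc
Of other elements searched, the M-CAT element CATTCC, which TEAD factors bind, was present before Acta2, Tpm1 and Cald1 and in 12.6% of all promoters. The AP-1 element TGANTCA was present in 1 promoter of Cald1 and in 6.75% of all promoters. The cyclic AMP response element TGACGTCA was in none of the 8 promoters and in 1.55% of all. A match describes letters in this window and shows neither binding nor its absence.

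Libraries held between 241442 and 5185044 counts, with a median of 3286107 at 0 h and 730895 at 1 h, so low genes were measured least well at 1 h. In the 6 libraries of batch 2 after hCG, 3332 genes that were counted in batch 1 had no count at all, and 0 of the 10 genes are among them. The whole 0 h group stood apart in these genes: they held 22.6% to 46.2% of all counts in each 0 h library, and at most 0.0667% in any library after hCG. Of the counts in tested genes, they held 8.63% to 22.5% at 0 h. TPM divide by a sum that includes these genes, so TPM of other genes at 0 h are lower than they would be without them. Levels below as CPM are counts scaled to 1e+06 per total of the tested genes, with that total adjusted for composition by TMM. Fitted without these genes, Acta2 was higher than at 0 h by 2.94 at 1 h (adjusted p = 4.54e-06), 2.30 at 4 h (adjusted p = 4.75e-05) and 0.46 at 8 h (adjusted p = 0.521) on the log2 scale, and 5, 4 and 2 of the 7 tested genes were called at these times. At 1 h that fit called 33.5% of all 8835 genes it tested. The summed level of 9 granulosa cell markers was 8984 to 58430 CPM over all libraries, against 0 to 122.4 CPM for 8 oocyte markers. Most of the granulosa sum was Inha and Inhba, with medians of 17980 and 6362 CPM over all libraries. The next granulosa marker, Hsd17b1, had a median of 102.8 CPM, and that of Amh was 0. Of 8 markers of pericytes, the contractile cells of small vessels, 4 passed the filter. The most counted was Pdgfrb with 142, 109, 159 and 146 counts in the 4 times in order, and the least counted were Rgs5 with 9, 6, 5 and 3 counts and Higd1b with 1 count, at 0 h.

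Acta2 was counted in every follicle, with its highest levels at 1 h and 4 h. At 0 h its level was 26.4 CPM in the lowest follicle, 138.6 in the median and 458.2 in the highest. At 1 h the corresponding values were 464.9, 1164 and 2377 CPM. Every follicle at 1 h lay above every follicle at 0 h. At 4 h they were 117.3, 759.8 and 1455 CPM, with 11 of 13 follicles above the whole 0 h group. At 8 h they were 58.4, 232.9 and 395.9 CPM, all 11 follicles below the lowest at 1 h and none above the highest at 0 h.

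**Figure D1:**
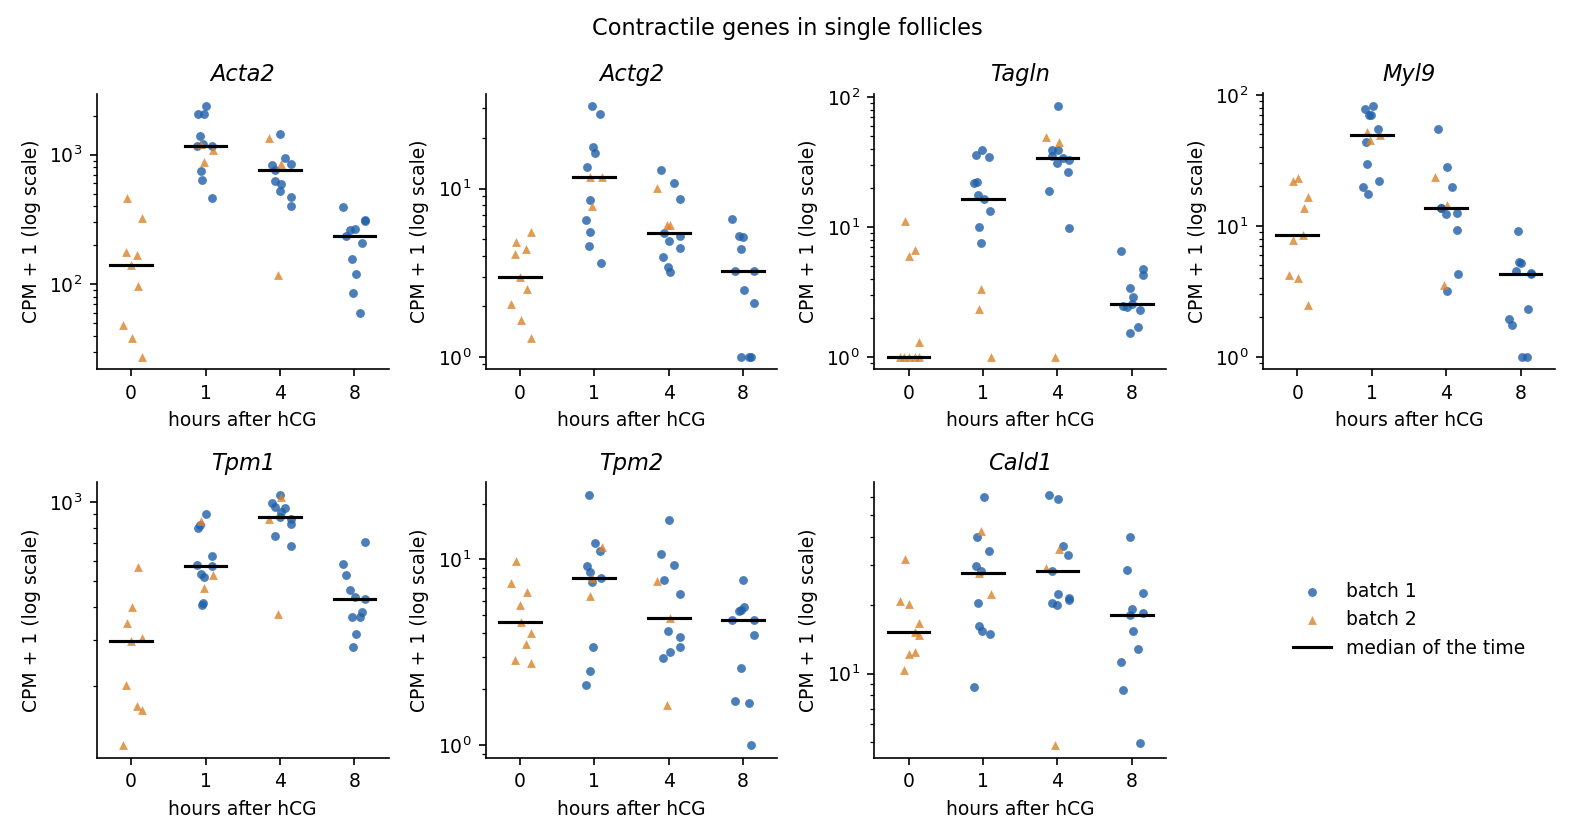
Level of the 7 tested genes in each of 46 follicles, as CPM plus 1 on a log axis, against hours after hCG. Circles are batch 1, triangles batch 2, and bars are medians. Acta2, Actg2 and Myl9 have their highest median at 1 h, Tagln and Tpm1 at 4 h.

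Tested with edgeR with terms for time and batch, Acta2 rose by a log2 fold change of 2.85 ± 0.48 (SE) at 1 h against 0 h (adjusted p = 7.57e-06), a 7.20-fold difference. It rose by 2.10 ± 0.46 at 4 h against 0 h (adjusted p = 0.00016). At 8 h against 0 h the estimate was 0.28 ± 0.55 (adjusted p = 0.709), which did not pass the test. Between 1 h and 8 h Acta2 fell by 2.57 ± 0.38 on the log2 scale (adjusted p = 1.82e-07), and between 4 h and 8 h it fell by 1.82 ± 0.37 (adjusted p = 9.41e-05). With a term for the 3 sets of libraries (either plate and batch 2) in place of batch, the fall from 4 h to 8 h was -2.16 (adjusted p = 0.0583). The step from 1 h to 4 h was -0.75 ± 0.33 (adjusted p = 0.0544), not called over both batches, while in batch 1 alone it was -0.78 (adjusted p = 0.0282). In batch 2 alone, the 3 follicles at 1 h had 870.9, 1094 and 1202 CPM, and the rise against 0 h was 2.73 (adjusted p = 0.016). The 3 follicles of batch 2 at 4 h had 117.3, 846.6 and 1352 CPM, and the lowest of them, replicate 11, lay within the 0 h range. From the highest median to the lowest, the order of times was 1 h, 4 h, 8 h and 0 h, where the neighbours 1 h and 4 h, and 8 h and 0 h, were not called different.

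Actg2, the second smooth muscle actin, had 288 counts over all libraries, against 32097 for Acta2. Its median went from 1.96 CPM before hCG to 10.7, 4.48 and 2.23 CPM in turn, and 3 of 11 follicles had no count at 8 h. It rose by 2.40 ± 0.58 at 1 h (adjusted p = 0.00134) and by 1.33 ± 0.56 at 4 h against 0 h (adjusted p = 0.0395). It fell by 1.07 ± 0.39 from 1 h to 4 h (adjusted p = 0.0185) and by 1.28 ± 0.44 from 4 h to 8 h (adjusted p = 0.0177). Between 1 h and 8 h Actg2 fell by 2.35 ± 0.45 on the log2 scale (adjusted p = 2.37e-05). The step from 1 h to 4 h was -0.89 with no filter on low counts (adjusted p = 0.11) and -0.67 by limma on log2(TPM + 1) (adjusted p = 0.102). The rise at 4 h rested on single follicles of batch 2, with adjusted p = 0.0547 without replicate 12 and 0.13 without replicate 13. The annotated transcripts of the pair share 0% of 50-base windows, and Actg2 counts were 0.758% to 1.3% of Acta2 counts at the 4 times. Of the Acta2 windows, 0.326% also lie in Actg1 and 0% in Actb.

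Over all genes tested, 12.4% rose and 22.2% fell at 1 h against 0 h, 21.9% rose and 32.2% fell at 4 h, and 17.5% rose and 27.6% fell at 8 h. Between the later times, 26% rose and 28.9% fell from 1 h to 4 h, 23.2% rose and 25.9% fell from 1 h to 8 h, and 19.8% rose and 21.6% fell from 4 h to 8 h. In the joint test of the 4 times, 79.8% of genes changed, and 5 of the 7 tested contractile genes did: Acta2, Actg2, Tagln, Myl9 and Tpm1. Against 0 h, 4 of 7 rose at 1 h and 4 of 7 at 4 h with no fall, while at 8 h none rose and 1 fell, Myl9. From 1 h to 4 h, 2 rose and 2 fell. From 1 h to 8 h, 6 of 7 fell, and from 4 h to 8 h, 5 of 7 fell, with no rise in either. The median log2 fold change of the 7 was 1.86 at 1 h, 1.33 at 4 h and -0.0043 at 8 h against 0 h, beside -0.19, -0.12 and -0.15 over all genes tested. These counts cover genes that passed the filter on low counts, which a gene can pass by being high at 1 time. With the term for library sets, 1 gene was called from 1 h to 4 h and 1 from 4 h to 8 h, Tagln in each case.

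**Figure D2:**
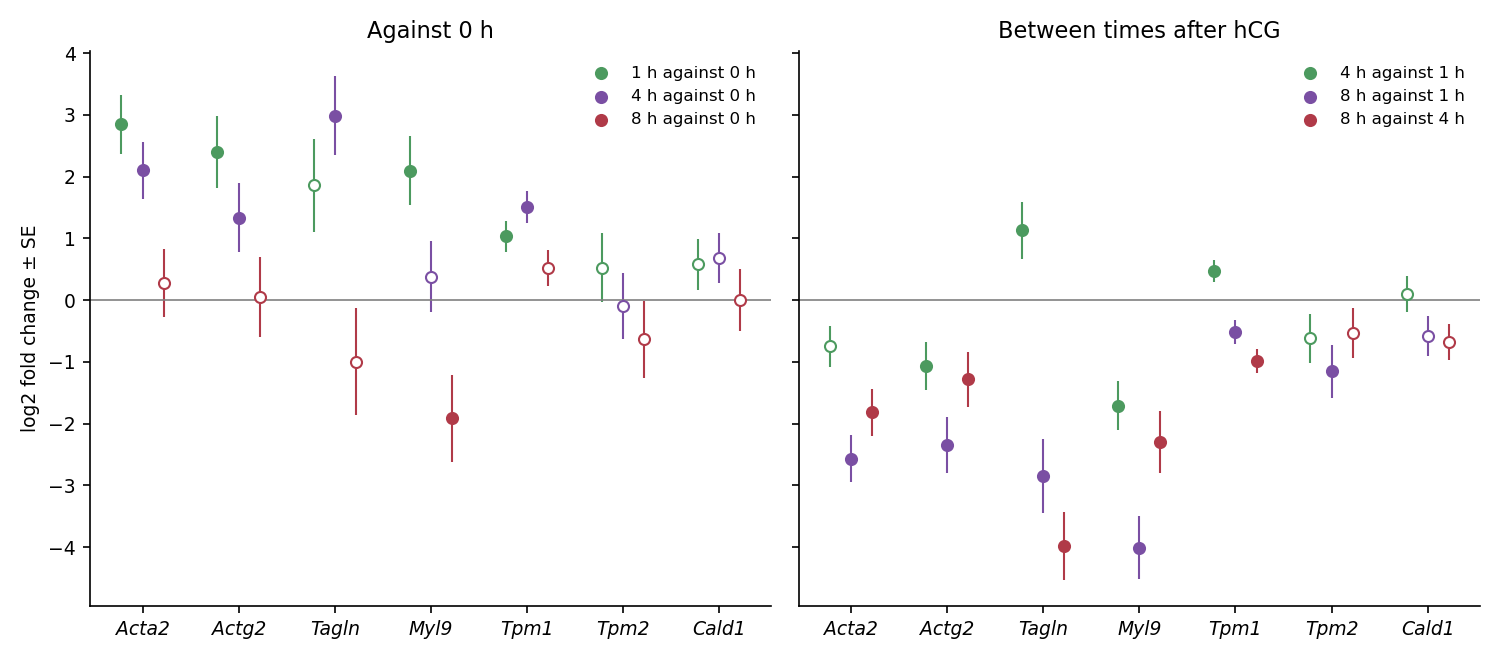
Log2 fold change with its standard error for the 7 tested genes, against 0 h (left) and between times after hCG (right), from edgeR with a batch term. Filled points have an adjusted p under 0.05 and open points do not; in the left panel Acta2, Actg2 and Tpm1 are filled at 1 h and at 4 h, and Myl9 alone at 8 h.

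Myl9, the regulatory light chain of smooth muscle myosin, had a short rise. The lowest, median and highest follicles were 1.47, 7.54 and 22.4 CPM at 0 h, and 16.7, 48.3 and 81.2 CPM at 1 h. At 4 h they were 2.18, 12.7 and 53.9 CPM, and at 8 h they were 0, 3.27 and 8.20 CPM. The 1 h and 8 h groups did not overlap, and Myl9 fell between them by 4.01 ± 0.50 on the log2 scale, or 16.1-fold (adjusted p = 3.51e-09). Against 0 h, 10 of 13 follicles at 1 h lay above the 0 h range. Myl9 rose by 2.09 ± 0.56 at 1 h against 0 h (adjusted p = 0.00311). The 3 batch 2 follicles at 1 h were close together, at 43.9, 48.2 and 50.6 CPM. It fell by 1.71 ± 0.40 from 1 h to 4 h (adjusted p = 0.000307) and by 2.30 ± 0.51 from 4 h to 8 h (adjusted p = 0.000234), so that at 4 h the difference from 0 h was 0.38 ± 0.57 (adjusted p = 0.588). At 8 h Myl9 was below 0 h by the batch-adjusted estimate, having fallen by 1.92 ± 0.71 on the log2 scale (adjusted p = 0.0245). No batch holds both 0 h and 8 h, and this call was lost with no filter on low counts (adjusted p = 0.0648) and without the 5 libraries at 0 h whose descriptions end in "_ds", a mark the labels do not explain (adjusted p = 0.074). It was also lost by limma on log2(TPM + 1), where the estimate was -1.21 (adjusted p = 0.175).

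Tagln, which encodes the actin-binding protein transgelin (SM22), reached its highest level at 4 h. It had 0 counts in 5 of 9 follicles at 0 h and at most 10.1 CPM in the others. At 1 h the lowest, median and highest follicles were 0, 15.4 and 38.3 CPM, and at 4 h they were 0, 32.8 and 84.7 CPM. At 8 h they were 0.534, 1.57 and 5.56 CPM. Tagln rose by 2.99 ± 0.64 at 4 h against 0 h (adjusted p = 0.000109), rose by 1.13 ± 0.47 from 1 h to 4 h (adjusted p = 0.0373) and fell by 3.98 ± 0.56 from 4 h to 8 h (adjusted p = 1e-07), a 15.8-fold difference. Between 1 h and 8 h it fell by 2.85 ± 0.60 on the log2 scale (adjusted p = 8.36e-05). At 1 h against 0 h the estimate was 1.86 ± 0.75 (adjusted p = 0.0501).

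The batches differed most for Tagln at 1 h. The 10 follicles of batch 1 had 6.52 to 38.3 CPM at 1 h, and the 3 of batch 2 had 0, 1.33 and 2.31 CPM, so the ranges did not overlap. At 4 h the batches overlapped, with 8.88 to 84.7 CPM in batch 1 and 0, 44.1 and 48.2 CPM in batch 2. The step from 1 h to 4 h was 0.76 in batch 1 alone (adjusted p = 0.0365) and 4.55 in batch 2 alone (adjusted p = 0.187). The difference of these steps was 3.78 ± 1.46 (adjusted p = 0.133) and was not called, in a test where 3.20% of 5820 genes were called with a larger step in batch 2 and 1.89% with a smaller one. Of the 5 contractile genes tested there 0 were called (Tagln alone had an unadjusted p under 0.05, at 0.0153), and Tagln was called without replicate 11 at 4 h (4.35, adjusted p = 0.0147). In batch 2 alone, 1 h against 0 h was -0.93 (adjusted p = 0.81), and with the term for library sets it was -1.01 (adjusted p = 0.696). Over both batches without the libraries marked "_ds" it was 5.73 (adjusted p = 0.000248), and it was 2.24, 2.12 and 2.07 without replicates 11, 12 and 13 at 1 h (adjusted p = 0.0268, 0.0337 and 0.0356). At 0 h, 62 of 63 counts of Tagln were in those 5 marked libraries. The call from 1 h to 4 h over both batches was lost without any single one of replicates 11, 12 and 13 at 1 h or 12 and 13 at 4 h (adjusted p from 0.0506 to 0.0617). Tagln (chr9:45929619-45936058, minus strand) overlaps Pcsk7 on the opposite strand, and in unstranded libraries reads of the overlap cannot be told apart. Pcsk7 had a median of 8.996 CPM before hCG, then 9.08, 6.39 and 8.35 CPM.

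Tpm1, which encodes alpha tropomyosin, was abundant at every time and had its highest level at 4 h. The lowest, median and highest follicles were 117.8, 295.6 and 566.5 CPM at 0 h and 405.8, 571.1 and 901.7 CPM at 1 h. At 4 h they were 374.8, 877.2 and 1070 CPM, with 12 of 13 follicles above the 0 h range, and at 8 h they were 279.5, 427.7 and 703.1 CPM. Tpm1 rose by 1.03 ± 0.25 at 1 h (adjusted p = 0.00142) and by 1.51 ± 0.26 at 4 h against 0 h (adjusted p = 2.36e-06). From 1 h to 4 h it rose by a further 0.48 ± 0.18 (adjusted p = 0.0235), and from 4 h to 8 h it fell by 0.99 ± 0.20 (adjusted p = 5.8e-05). In batch 2 alone the rise at 1 h was 1.17 (adjusted p = 0.0599), and at 4 h it was 1.51 (adjusted p = 0.01). The difference at 8 h against 0 h was 0.52 ± 0.30 (adjusted p = 0.148), and without the libraries marked "_ds" it was 1.02 (adjusted p = 0.00849) and by limma on log2(TPM + 1) it was 1.25 (adjusted p = 0.0024). From 1 h to 8 h Tpm1 fell by 0.51 ± 0.20 on the log2 scale (adjusted p = 0.0274), a call lost with no filter on low counts (-0.36, adjusted p = 0.204).

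Tpm2 and Cald1 were not called in the joint test (adjusted p = 0.0879 and 0.0615). Tpm2, beta tropomyosin, had a median of 3.63, 6.99, 3.83 and 3.71 CPM at 0, 1, 4 and 8 h, and it was called in 1 comparison, a fall of 1.16 ± 0.43 on the log2 scale from 1 h to 8 h (adjusted p = 0.0224), which was lost with no filter on low counts (adjusted p = 0.0675). Cald1, caldesmon, had a median of 14.3, 26.7, 27.4 and 17.1 CPM, and it was called in no comparison. Its largest estimate was -0.68 ± 0.30 from 4 h to 8 h (adjusted p = 0.0606), which in batch 1 alone was -0.73 (adjusted p = 0.0417). At 4 h, replicate 11 had 3.82 CPM of Cald1, the lowest of all follicles, and without it the difference of Cald1 at 4 h from 0 h was 1.15 (adjusted p = 0.0141). That replicate was also the lowest of its time for Acta2, Tagln, Tpm1 and Tpm2.

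The remaining genes were hardly detected. Myh11, the smooth muscle myosin heavy chain, had 38 counts in all libraries together and 0 in 29 of 46. Cnn1, calponin, had 19 counts and was at 0 in 36 libraries, and Des, desmin, had 26 counts and was at 0 in 31. Of the 38 counts of Myh11, 24 were at 0 h, and 17 of these were in the 5 libraries marked "_ds". The 0 h libraries were also deeper, with a median of 3286107 counts against 730895 at 1 h, which favours finding a count of Myh11 there. Myh11 had a count in 7 of 9 follicles at 0 h, 3 of 13 at 1 h, 3 of 13 at 4 h and 4 of 11 at 8 h, and its mean level was 1.04, 0.444, 0.304 and 0.248 CPM in that order. The highest single library was at 2.51 CPM at 0 h and at 2.99 CPM at 4 h. Without the filter on low counts, their adjusted p against 0 h ranged from 0.15 (Des at 1 h) to 0.947 (Cnn1 at 1 h). No change was called in these genes, and how large a change could be detected at these counts was not tested. At 1 h, when Acta2 had its highest median, the median of Myh11, Cnn1 and Des was 0.

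Levels of different genes were compared as TPM, the unit of transcript abundance that is scaled for gene length and library size. At 0 h the median of Tpm1 was 199.8 TPM and that of Acta2 73.9 TPM, with Cald1 at 9.22, Myl9 at 7.44, Tpm2 at 3.70 and Actg2 at 1.47 TPM. At 1 h Acta2 was first with 838.2 TPM, ahead of Tpm1 with 527.3 and Myl9 with 83.9 TPM. Acta2 exceeded Tpm1 in 1 of 9 follicles at 0 h, 12 of 13 at 1 h, 2 of 13 at 4 h and 0 of 11 at 8 h. At 4 h Tagln, at a median of 29.7 TPM, stood above Myl9 in 10 of 13 follicles, and at 1 h in 0 of 13. At 8 h the order of medians was Tpm1 (443.5 TPM), Acta2 (201.4), Cald1 (19.1), Myl9 (5.93), Tpm2 (5.45), Actg2 (2.69) and Tagln (1.58). Cald1 then exceeded Myl9 in 11 of 11 follicles, and Tagln exceeded Myl9 in 4 of 11.

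**Figure D3:**
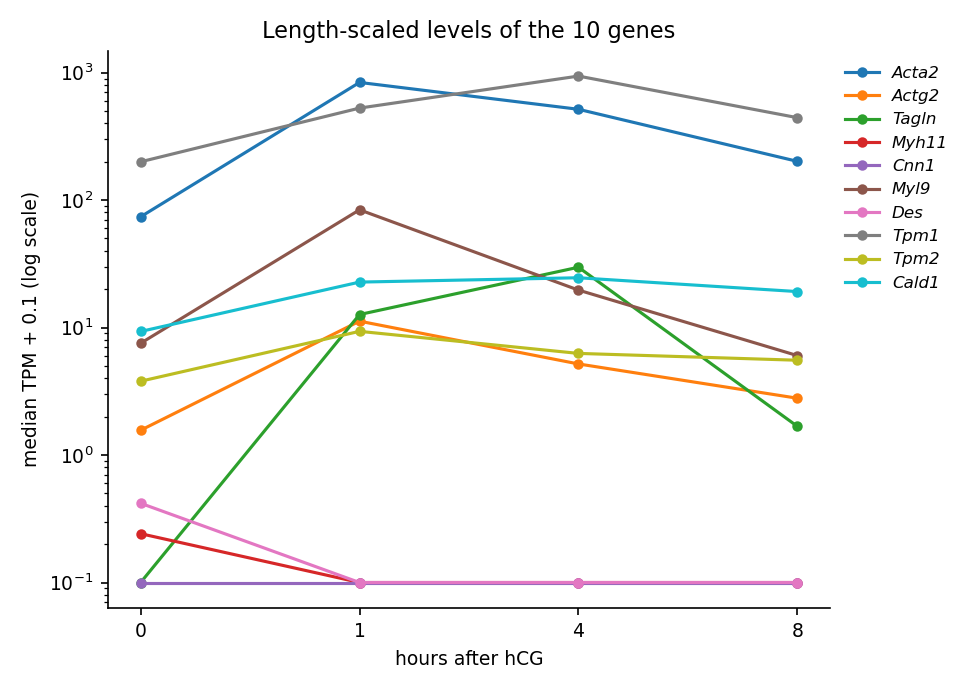
Median TPM plus 0.1 on a log axis for all 10 genes at 0, 1, 4 and 8 h after hCG, with the times drawn at equal distances. Acta2 and Tpm1 stand above the rest at every time, and Myh11, Cnn1 and Des lie at the bottom.

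Of 6 other actins and tropomyosins listed, 5 were tested, and all 5 of them rose at 1 h and at 4 h against 0 h. At 8 h 3 of the 5 were still called higher, Actg1 (0.64 ± 0.26, adjusted p = 0.045), Tpm3 (1.11 ± 0.41, adjusted p = 0.026) and Tpm4 (2.65 ± 0.25, adjusted p = 2.33e-12). From 1 h to 4 h the actins Actb, Actg1 and Acta1 fell, and Tpm4 rose by 1.12 ± 0.15 (adjusted p = 2.87e-08). Cytoplasmic beta actin (Actb) had a median of 15520, 31240, 23000 and 17990 CPM at 0, 1, 4 and 8 h and rose by 0.91 ± 0.16 at 1 h (adjusted p = 1.79e-05). Cytoplasmic gamma actin (Actg1) rose by 2.22 ± 0.23 at 1 h (adjusted p = 7.57e-11), and skeletal muscle actin (Acta1) by 1.86 ± 0.37 (adjusted p = 0.000115). Of the 50-base windows of annotated Acta1 transcripts, 1.83% also lie in Actb and 0.652% in Actg1. At 0 h Acta1 had 149 counts and Actb 349216, and how many Acta1 counts came from shared stretches was not tested. Tpm4, a cytoskeletal tropomyosin, rose by 3.42 ± 0.22 at 4 h (adjusted p = 4.34e-18), from a median of 166 CPM at 0 h to 1695 CPM.

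Acta2 also changed as a share of its family. Of all actin TPM, Acta2 made up a median of 0.666% at 0 h, 2.09% in batch 1 and 2.06% in batch 2 at 1 h, 1.91% and 2.45% at 4 h, and 0.765% at 8 h. Within batch 2 the mean share was higher at 1 h than at 0 h by 1.30 percentage points (exact permutation test, two-sided, adjusted p = 0.0227 over 10 tests), with all 3 follicles above all 9 at 0 h. At 4 h in batch 2 it was higher by 1.24 points (exact permutation test, adjusted p = 0.104), with 2 of 3 follicles above the 0 h range. Within batch 1 the share was lower at 8 h than at 1 h, by a difference of -1.43 points (permutation test, adjusted p = 0.0013), and lower at 8 h than at 4 h (-1.13 points, permutation test, adjusted p = 0.0012). Between 1 h and 4 h in batch 1 it differed by -0.29 points (permutation test, adjusted p = 0.461).

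Tpm1, in contrast, had its highest share of its family at 0 h. It made up a median of 61.7% of the TPM of 4 tropomyosins at 0 h, 48.9% at 1 h in batch 1, 38.2% at 4 h in batch 1 and 33.3% at 8 h. In batch 2, which holds the 0 h group, the median was 51.4% at 1 h and 47.3% at 4 h, and the differences from 0 h did not pass (exact permutation tests, adjusted p = 0.121 and 0.104). In batch 1 its mean share at 8 h was 33.2% ± 5.79 (SD, n = 11), lower than 46.1% ± 9.14 (SD, n = 10) at 1 h (permutation test, adjusted p = 0.0056). The differences of this share between 8 h and 4 h and between 4 h and 1 h in batch 1 had adjusted p = 0.0516 and 0.121 (permutation tests).

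**Figure D4:**
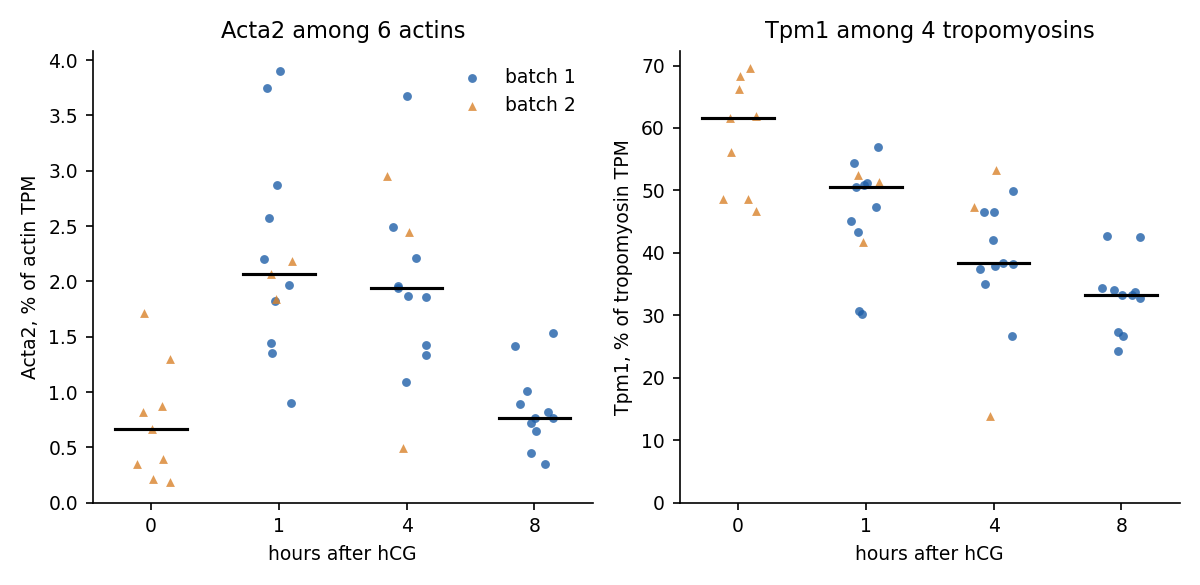
Share of Acta2 in the TPM of 6 actins (left) and of Tpm1 in the TPM of 4 tropomyosins (right) in each follicle, in percent, against hours after hCG. Circles are batch 1, triangles batch 2, bars medians; Acta2 stays below 4% at every time, and the Tpm1 share has its highest median at 0 h.

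In some groups, follicles with more Acta2 also had more of another of these genes. Of 21 relations computed within 0 h, 1 h of batch 1, 4 h of batch 1 and 8 h, 20 had a positive Pearson r, and 4 had an adjusted p under 0.05 for r. Relations within a group reuse the same Acta2 values, so the 21 are not independent, and the share of positive r over all genes was not computed. At 0 h (n = 9), Acta2 went with Actg2 (r = 0.97, rho = 0.97, exact permutation adjusted p = 0.000521 for r and 0.00347 for rho), although Actg2 had only 1 to 12 counts per follicle. It went with Myl9 at 0 h (r = 0.85, rho = 0.73, exact permutation adjusted p = 0.033 and 0.131) and at 1 h (n = 10, r = 0.83, rho = 0.85, permutation adjusted p = 0.033 and 0.0325). At 8 h (n = 11) it went with Tpm1 (r = 0.76, rho = 0.80, permutation adjusted p = 0.033 and 0.0325). Without the 2 follicles farthest from the median of Acta2, r was 0.92 for Actg2, 0.68 and 0.78 for Myl9, and 0.80 for Tpm1. Tagln at 0 h (r = 0.11, exact permutation adjusted p = 0.811) and Cald1 at 8 h (r = -0.006, permutation adjusted p = 0.985) showed no such relation. The values of a follicle share a library and its depth.

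**Figure D5:**
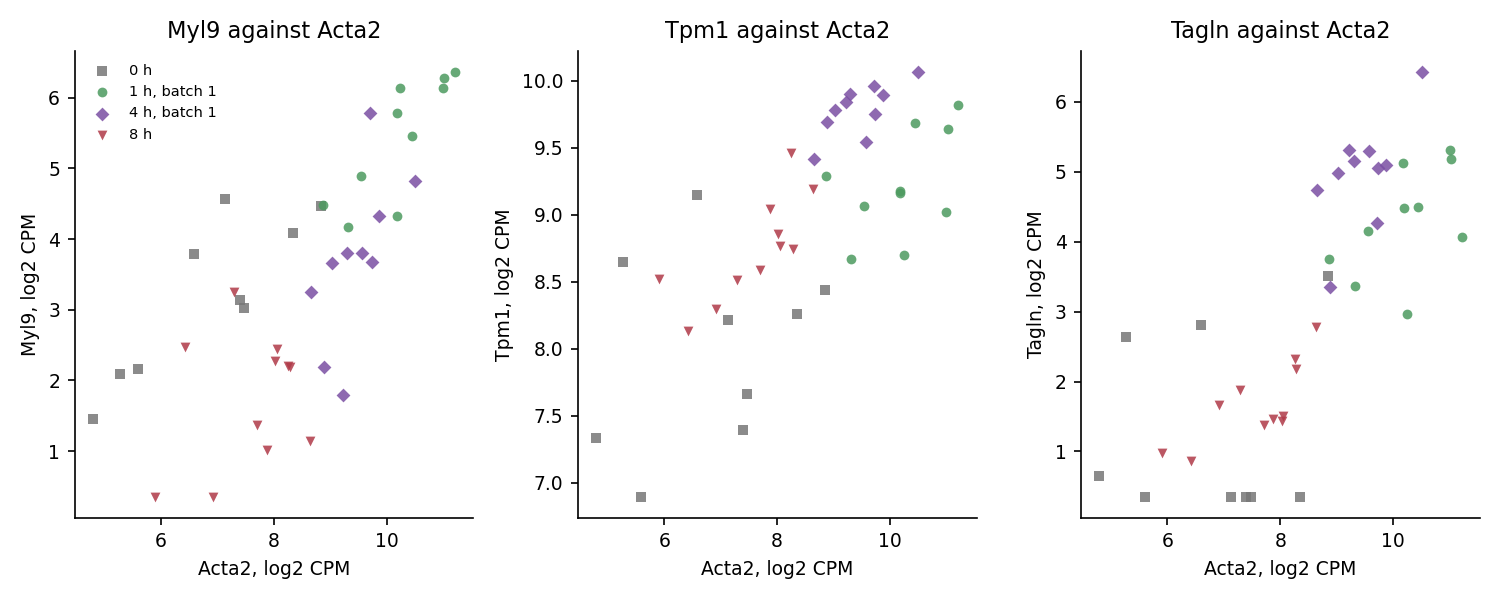
Log2 CPM of Myl9, Tpm1 and Tagln against log2 CPM of Acta2, 1 point per follicle, in the 4 groups of 9 to 11 follicles of a single time and batch. Myl9 rises with Acta2 within 0 h and 1 h, and Tpm1 within 8 h; the lowest row of Tagln points are follicles with 0 counts.

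Over all 46 libraries, after the mean of each time and batch was taken off, the genes most like Acta2 among 6824 ranked were Actb (r = 0.73), Actg1 (r = 0.72), Cnn2 (r = 0.70), Anxa6 (r = 0.68) and Myl9 (r = 0.67). Cnn2 encodes the widely expressed calponin and Anxa6 an annexin that binds membranes. Tpm1 was in place 23 (r = 0.52) and Cald1 in place 92 (r = 0.41). Among the 7 tested genes themselves the highest such value was between Tpm2 and Cald1 (r = 0.74), and the lowest between Actg2 and Tagln (r = 0.10).

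Of genes that control contraction, 9 of 11 listed myosin chains, kinases and phosphatase subunits were tested. At 1 h 3 rose and 0 fell, at 4 h 4 rose and 2 fell, and at 8 h 0 rose and 2 fell. Mylk, the myosin light chain kinase, had a median of 5.25, 16.1, 1.37 and 0.756 CPM at 0, 1, 4 and 8 h. It fell by 2.44 ± 0.72 at 8 h against 0 h (adjusted p = 0.00477) and by 3.36 ± 0.44 from 1 h to 4 h (adjusted p = 8.75e-09). Ppp1r12b, a targeting subunit of myosin phosphatase, rose by 1.15 ± 0.34 at 1 h (adjusted p = 0.00832), its catalytic subunit Ppp1cb by 1.17 ± 0.27 at 4 h (adjusted p = 0.000317), and the light chain Myl12a by 0.79 ± 0.17 at 1 h (adjusted p = 0.000318). The nonmuscle heavy chain Myh10 fell by 1.60 ± 0.20 at 4 h (adjusted p = 5.26e-09), while Myh9 rose by 0.71 ± 0.29 (adjusted p = 0.0346).

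Srf itself was too low to be tested, with a median of 2.75, 8.26, 0.977 and 1.89 CPM at 0, 1, 4 and 8 h. Of 6 tested partners of SRF, 0 rose and 1 fell at 1 h, 1 rose and 1 fell at 4 h, and 0 rose and 1 fell at 8 h. Myocd, the coactivator known from smooth and cardiac muscle, had a median of 200.2, 270.2, 141.1 and 4.17 CPM and fell by 4.04 ± 0.69 at 8 h (adjusted p = 4.57e-06). The ternary complex factor Elk1 fell by 1.56 ± 0.28 at 4 h (adjusted p = 7.67e-06) and Elk3 by 1.64 ± 0.54 at 1 h (adjusted p = 0.0158), and Elk4 rose by 0.80 ± 0.29 at 4 h (adjusted p = 0.0162). Of 18 tested genes listed as actin-linked SRF targets, 9 rose and 0 fell at 1 h, 9 rose and 3 fell at 4 h, and 6 rose and 4 fell at 8 h. Tagln2, the paralog of Tagln, rose by 5.33 ± 0.45 at 4 h (adjusted p = 5.01e-14) and was still high at 8 h, with a median of 460.5 CPM against 8.38 CPM at 0 h. The fibronectin receptor subunit Itga5 rose by 3.89 ± 0.24 at 8 h (adjusted p = 2.62e-18). The LIM proteins Fhl1 and Fhl2 fell by 5.33 ± 0.51 and 2.81 ± 0.54 at 8 h (adjusted p = 4.77e-12 and 3.22e-05), as did Tgfb1i1, by 1.85 ± 0.42 (adjusted p = 0.000307).

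Endothelins are peptides that contract smooth muscle. Of 9 endothelin and contraction receptor genes 3 were tested, and Edn1 rose by 4.81 ± 0.87 at 4 h (adjusted p = 7.83e-06). The endothelin receptor Ednra rose by 1.56 ± 0.37 at 1 h (adjusted p = 0.000939), and the endothelin-converting enzyme Ece1 fell by 1.86 ± 0.23 at 8 h (adjusted p = 7.12e-09). Edn2, not tested, had 0 counts before hCG and then 24, 39 and 1 counts in the 1 h, 4 h and 8 h groups. Relative to the summed counts of each group, without the 3332 genes, it was at least 18.3-fold higher at 1 h and at least 11.3-fold higher at 4 h than the limit of 3 counts over the 0 h group, with counting error only.

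Markers of other cell types were followed beside these genes. Of 11 tested theca and stroma markers, 0 rose and 1 fell at 1 h, 0 rose and 5 fell at 4 h, and 0 rose and 6 fell at 8 h. The summed level of the 14 listed was 710.2 to 3442 CPM at 0 h, 273.7 to 5116 at 1 h, 101.5 to 2444 at 4 h and 60.95 to 2879 at 8 h, with none at 0 in a whole time group. Of 4 tested pericyte markers 0 were called against 0 h by edgeR at any time, and the sum of the 8 listed was 11.4 to 51.3 CPM at 0 h, 13.3 to 121.8 at 1 h, 4.67 to 127 at 4 h and 7.48 to 46.8 at 8 h, with Higd1b at 0 after 0 h. The medians of that sum were 18.7, 43.7, 18.8 and 16.7 CPM in the 4 times in order. They were highest at 1 h, like those of Acta2, Actg2 and Myl9. Medians of the theca and stroma sum were also highest at 1 h (1382, 1814, 338.9 and 253.7 CPM). So were those of the leukocyte sum (20.24, 27.72, 8.225 and 8.919 CPM). The surface epithelium and oocyte sums had their highest median at 8 h, and the granulosa sum at 0 h. All 4 tested pericyte markers had a positive estimate at 1 h, from 0.91 ± 0.65 for Abcc9 (adjusted p = 0.282) to 1.75 ± 0.82 for Mcam (adjusted p = 0.09). The sum of 7 endothelial markers had medians of 15.2, 45.3, 12.7 and 17.1 CPM, and Cdh5, the cadherin of vessel lining cells, rose by 1.98 ± 0.67 at 1 h (adjusted p = 0.0196). Of other markers tested against 0 h, 1 of 2 endothelial genes (Cdh5) rose at 1 h and 0 of 2 later. The 1 leukocyte gene and the 1 oocyte gene were not called against 0 h, and 1 of 2 surface epithelium genes rose, at 8 h. From 1 h to 8 h, 7 of 11 theca and stroma genes, 7 of 8 granulosa genes, 1 of 2 endothelial genes and the 1 leukocyte gene fell. Over all genes tested, 25.9% fell and 23.2% rose in that step. The 4 pericyte genes and the 1 oocyte gene were not called there, and 2 of 2 surface epithelium genes rose. Against 0 h, granulosa markers fell with time, 2 of 8 at 1 h (1 rose), 6 of 8 at 4 h and 8 of 8 at 8 h. Their sum, which is mostly Inha and Inhba, went from a median of 40050 CPM at 0 h to 14510 CPM at 8 h. In a whole follicle, fewer cells of a type and less RNA per cell cannot be told apart, and the part of cell composition in the values above was not tested.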

How the data were processed

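Whole-number counts for 25147 genes were deposited by the authors, adjusted between batches with ComBat-seq as the table's name says. The authors also deposited TPM for 25122 genes, made from the adjusted counts by the same kind of name. GRCm38, HISAT2, Partek and DESeq2 are named in the submitters' processing notes, without roles or versions. Libraries were made with Smart-Seq2 and Nextera XT, per the labels, kits that do not mark strand. A further deposited table holds the authors' signed fold change against 0 h (a score, negative for a decrease) and p-value for 19925 genes, per the file headers. Among the columns of counts, 10 belong to no sample of the labels and stayed out, and so did 10 columns of TPM.

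R 4.3.3 and edgeR 4.0.16 gave the tests of counts over 46 libraries. They were quasi-likelihood F tests with terms for time and batch, after TMM scaling and filterByExpr by time, with Benjamini-Hochberg adjustment over 8629 genes and calls at an adjusted p under 0.05. The SE is the fold change divided by the square root of F. The difference of the step from 1 h to 4 h between batches was tested on the 26 libraries of those times. CPM use the TMM-scaled totals of the tested genes, and log2 CPM a prior count of 2. Relations and shares were tested in scipy 1.17.1 by permutation, exactly below 10 follicles and with 100000 resamples otherwise. A gene entered a relation with at least 5 counts on average. Scripts were tested on simulated data. Alternatives were RLE factors, no filter, no batch term, a term for library sets, a replicate block, DESeq2 1.42.0, limma 3.58.1 on log2 TPM with pseudocounts of 1 and 0.1, either batch alone, equal depth and libraries left out.

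The 10 genes and all lists were chosen with earlier results of these data known. All 10 are named, and of each actin or contraction list the called genes with the largest changes, at most 3 in either direction, with Srf, Actb, Actg1, Myh9 and Edn2 always. Likeness to Acta2 was ranked among tested genes whose log2 CPM averaged 3 or more, and the first 5 are named. The family shares, the looser CArG rule, Pcsk7 and the levels of single listed genes were chosen after the values were seen. A further list of genes is not reported here.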

Additional observations from a re-analysis of the deposited data

Results flagged for a closer look

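In 27 groups of 9 or 10 follicles of a single time and batch, 5 had a highest follicle far from the rest by Dixon's rule. For normally distributed values the rule marks about 1 in 20 groups. Values here were not put on a log scale, and the groups reuse the same follicles across genes. That rate therefore may not hold, and the number flagged cannot be set against it. At 4 h in batch 1, replicate 10 had 1455 CPM of Acta2, with the next follicle at 936 CPM. The same replicate had 84.7 CPM of Tagln, from 22 counts, with the next at 38.6 CPM. Its library was the shallowest of all 46, with 241442 counts. Replicate 8 of that group had 53.9 CPM of Myl9, with the next at 26.95 CPM. At 1 h in batch 1, replicate 9 had 21.4 CPM of Tpm2, from 6 counts, with the next at 11.2 CPM. That library was the shallowest at 1 h, with 302737 counts. At 0 h, replicate 7, whose description ends in "_ds", had 31.1 CPM of Cald1, with the next at 19.8 CPM.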

How the results depend on the processing

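The number of the 7 tested contractile genes called was 5 over all times, 4 at 1 h, 4 at 4 h and 1 at 8 h against 0 h, 4 from 1 h to 4 h, 6 from 1 h to 8 h and 5 from 4 h to 8 h. With libraries thinned to 241442 counts only 2 of the genes, Acta2 and Tpm1, could be tested, and 2, 2, 2, 0, 2, 2 and 2 were called in that order, so depth limits what can be said of the other 8. Of all 3182 genes tested at that depth, 82.3% were called over all times and 27.4% at 1 h against 0 h. Over all times, 6 of 7 were called with no batch term, with DESeq2 and without the genes at 0 in batch 2 after hCG. These fits called 86.9%, 82.3% and 80.0% of all genes tested. At 8 h against 0 h, 0 were called with no filter, 2 with no batch term and 2 without the genes at 0 in batch 2 after hCG. With a term for library sets, 1 was called (Tagln) from 1 h to 4 h and 1 (Tagln) from 4 h to 8 h. From 1 h to 4 h, 2 were called by limma on log2(TPM + 0.1), 0 in batch 2 alone and 0 there without replicate 11 at 4 h, an alternative added after the data were seen. Leaving out 1 library of batch 2 gave 5 calls at 1 h, 3 to 5 at 4 h, 3 to 4 from 1 h to 4 h and 0 to 1 for the difference between batches. With a block for the replicate number, 2 were called at 1 h, 2 at 4 h and 0 at 8 h against 0 h. That block called 4.11% of all genes tested at 1 h against 0 h, where the main fit called 34.6%. In the same comparison 19.6% were called with no filter, 47.9% with no batch term and 29.6% with the term for library sets. With the replicate block, Tagln at 4 h reversed to -0.29 (adjusted p = 0.964) and Myl9 at 8 h to 3.16 (adjusted p = 0.592). Follicles with the same number at different times did not deviate together (median r = -0.0018 over 62 pairs, -0.0033 for other numbers). That gave no sign of pairing by number, though a weak pairing could be missed by it. The median log2 fold change over all genes at 8 h was -0.15, and 0.23 by limma on log2(TPM + 1). At 8 h against 0 h the 1 call was Tpm1, a rise, in place of Myl9 without the libraries marked "_ds" and by limma on log2 TPM, and Tagln, a fall, with the term for library sets. The 10 share tests kept their direction and side of the threshold with counts in place of TPM, and 4 relations of Acta2 passed the threshold with log2(TPM + 1) also.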

Other observations

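In the authors' deposited table, which compares each time with 0 h, the signed fold change of Acta2 was 7.53 at 1 h, 4.59 at 4 h and 1.32 at 8 h. In the authors' deposited table Tagln had 6.51 at 1 h, 13.9 at 4 h and -1.10 at 8 h, and its unadjusted p-value at 1 h was 1.64e-05. The edgeR F test with a batch term gave Tagln at 1 h an unadjusted p of 0.0174 (adjusted p = 0.0501). The authors' deposited table gave Myl9 a value of 4.48 at 1 h, 1.45 at 4 h and -3.72 at 8 h. For Myh11 the authors' deposited table listed decreases at all 3 times (-2.07, -3.38 and -4.01), with p-values of 0.302, 0.0774 and 0.0565.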
